A study of Mus musculus with 6 samples.

Results

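The genes described here encode the subunits, assembly chaperones, activators and inhibitor of the proteasome. They were taken as every feature whose name starts with Psma to Psmg and a digit, without pseudogenes named with -ps, which gave 50 of 41128 features. The 3 names with -ps had no counts. RNA was sequenced from mouse lenses at stage E13.5. In 3 libraries the lenses were conditional knockouts (cKO, genotype Prox1 f/f MLR10Cre+) for Prox1, which encodes a homeobox transcription factor, and in 3 control libraries they were wild type. Both groups are labelled strain C57Bl/6. Each library is a pool of 30 lenses and is called a biological replicate. MLR10Cre is a Cre transgene driven by a modified alpha A-crystallin promoter that is active in lens epithelium and fibre cells. The wild type controls carry neither the floxed alleles nor Cre, so an effect of either cannot be told apart from that of Prox1 loss.

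The 26S proteasome is the main machine that breaks down ubiquitin-tagged proteins in the cytosol and nucleus. Its 20S core is a barrel of alpha rings, which form the gate, and beta rings, which hold the active sites. The 19S particle caps the barrel: its base holds a ring of ATPases that unfold substrates and open the gate, and its lid removes the ubiquitin chain. In the lens, ubiquitin-dependent proteolysis is known to act on cell cycle regulators as fibre cells differentiate.

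The depth was 9082219 to 28391662 counts in the cKO libraries and 20731491 to 21061582 counts in the wild type libraries, and cKO libraries 2 and 3 were the shallowest. Prox1 itself stood at 650.2, 727 and 707 CPM in the cKO libraries, against 922, 1214 and 1245 CPM in the wild type libraries (log2 fold change -0.70, SE 0.14, adjusted p = 0.00741, edgeR quasi-likelihood test). The labels do not name the floxed exon, so how far the gene's total count should fall is not known. The 16 crystallin genes, the main products of lens fibre cells, took 2.86%, 2.83% and 3.14% of counts in the cKO libraries, against 13.2%, 21.5% and 22.7% in the wild type libraries. All 9 lens fibre markers found were lower in the cKO, and their summed level was 19121 to 22139 CPM in the cKO and 98842 to 194706 CPM in the wild type. Markers of tissue around the lens were higher in part: 5 of 6 pigment cell genes (263 to 728 CPM in the cKO, 81.0 to 190 CPM in the wild type) and 3 of 7 tested periocular mesenchyme genes (702 to 3283 CPM in the cKO, 273 to 552 CPM in the wild type) passed the test. Of the neural retina genes 3 of 8 were higher, with Sox2 at 0 in all libraries. Of 8 erythroid genes 2 were higher, and none of 11 macrophage and 7 endothelial genes passed the test. Of 6 lens epithelium genes 4 were higher and 2 lower. These marker counts stand beside 15.9% higher and 16.8% lower over all features tested. The part of these cell types in the results on the proteasome was not tested. Cells of a type being fewer and their RNA per cell being less cannot be told apart in such pools.

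With TMM scaling the proteasome genes were on the whole lower in Prox1 cKO lenses, and with scaling by total counts alone they were not. Of the 50 members, 46 had enough counts to be tested, and 22 of these were lower and 1 was higher at an adjusted p below 0.05. Over all 14271 features tested, 32.6% passed the same test, with 16.8% lower and 15.9% higher. The median log2 fold change of the tested members was -0.36, against 0.042 over all features tested, and 43 of the 46 had a negative value. All 3 cKO libraries lay below all 3 wild type libraries for 33 members, and this was so for 25.7% of all features tested. The reverse held for 1 member, Psmc3ip, and for 24.4% of all features tested. The lowering was moderate in size: 9 of the 22 members were lower by at least 1.5-fold, and the largest difference, in the ATPase gene Psmc5, was 1.96-fold. The labels do not say whether lenses of the same embryos or litters entered several pools, so these p-values measure the spread between the pools.

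The scaling of the libraries sets where 0 lies for these values, and the crystallins take very different shares of the counts in the groups. With the total count as the only scaling, the median of the members was -0.0007, 3 members were lower and 1 higher by the test, and 23 of 46 had a negative value. Over all features tested, 6362 passed under that scaling, against 4659 with TMM, and their median moved to 0.39. The members' median less that of all features was -0.40 with TMM, with DESeq2 size factors and with upper quartile scaling. It was -0.39 with total counts and -0.40 with total counts without crystallins. A change of scaling moves all features by nearly the same amount, so these values had to be alike and are no independent check. As shares of all counts, the members together took 0.592%, 0.544% and 0.454% in the cKO, against 0.58%, 0.589% and 0.548% in the wild type, and the groups overlap. As shares of the counts outside the crystallins, they took 0.61%, 0.56% and 0.469% in the cKO, against 0.668%, 0.751% and 0.71% in the wild type, without overlap.

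**Figure D1:**
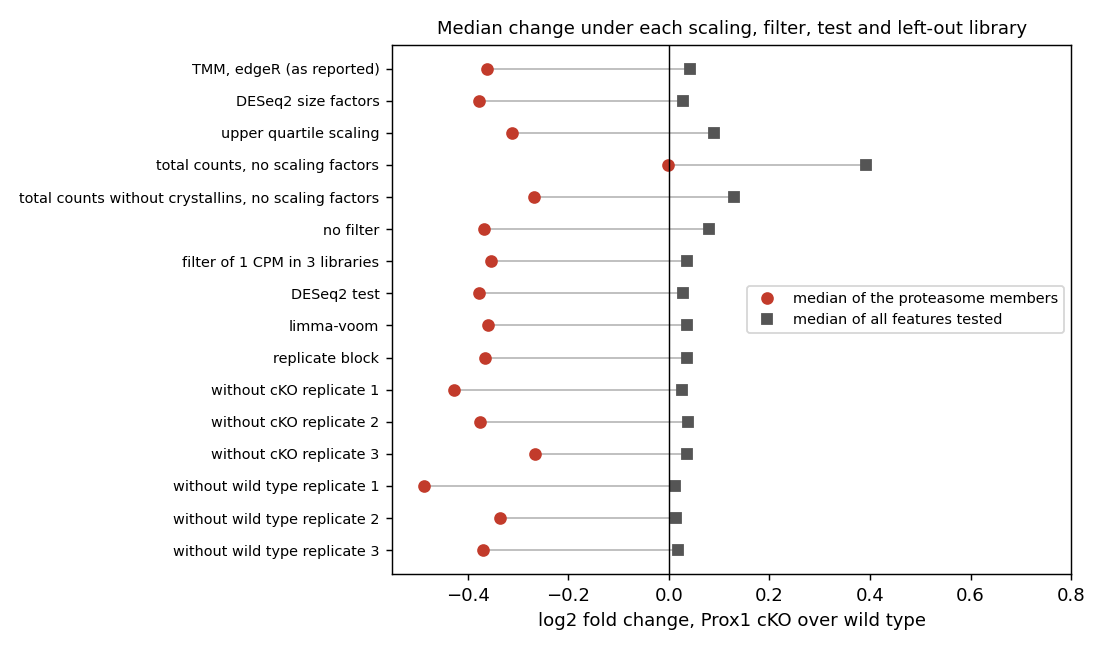
Median log2 fold change (x axis, Prox1 cKO over wild type) of the tested proteasome members (red circles) and of all features tested (grey squares) under each scaling, filter, test and left-out library (y axis). The members lie left of all features in each row. They lie at -0.36 against 0.042 in the analysis reported, and at -0.0007 against 0.39 when only total counts were used. A change of scaling moves both medians by nearly the same amount, so the gap hardly depends on it.

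The libraries within each group did not behave alike. Among the cKO libraries, library 3 had the lowest value for 43 of the 46 members, and among the wild type libraries, library 1 had the lowest for 35. Wild type library 1 was also the one with the smallest crystallin share, and cKO library 3 had the highest summed pigment and mesenchyme levels. Without cKO library 3, 17 members passed the test, and without wild type library 1 it was 29. Without wild type library 2 it was 12 and without wild type library 3 it was 14, while the count over all features fell to 2267 and 2475. In each of these fits at least 42 of the 46 members kept a negative value. Only 12 members passed in every fit with 1 library left out: Psmc5, Psmc1, Psmc4, Psmc3, Psmb5, Psmb6, Psmb7, Psmd4, Psmd1, Psmd2, Psmd12 and Psme4.

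The promoters of the members were read because so many moved in one direction. Windows of 250 bases before the RefSeq start were found for 42 of the 50 members. Short motifs were searched on both strands: TTCCGG, the core bound by ETS factors, GGGCGG, bound by SP factors, CCAAT, bound by NFY, TGACNNNGC, bound by NFE2L1 and NFE2L2 with small MAF partners, and TATAAA. The 3 members of largest decrease, Psmc5, Psmb5 and Psmc1, and the activator gene Psme3, which did not pass, are shown with matches to the first 4 of these motifs in capitals on the strand of the gene, so that a match on the other strand appears as its reverse complement. Sequences are from RefSeq on GRCm38.p6, 5′ to 3′: Psmc5 at chr11:106255935-106256184, plus strand, Psmb5 at chr14:54617996-54618245, minus strand, Psmc1 at chr12:100109952-100110201, plus strand, and Psme3 at chr11:101315963-101316212, plus strand.
Psmc5: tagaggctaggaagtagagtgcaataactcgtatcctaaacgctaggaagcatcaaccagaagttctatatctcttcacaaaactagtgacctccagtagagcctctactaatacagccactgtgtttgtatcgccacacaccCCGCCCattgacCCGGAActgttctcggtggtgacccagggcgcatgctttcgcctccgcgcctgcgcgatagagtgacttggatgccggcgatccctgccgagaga
Psmb5: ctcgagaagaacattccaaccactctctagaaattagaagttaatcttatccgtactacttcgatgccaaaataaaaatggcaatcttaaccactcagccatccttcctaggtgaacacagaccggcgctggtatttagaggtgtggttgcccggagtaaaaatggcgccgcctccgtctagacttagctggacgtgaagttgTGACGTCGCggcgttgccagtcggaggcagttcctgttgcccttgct
Psmc1: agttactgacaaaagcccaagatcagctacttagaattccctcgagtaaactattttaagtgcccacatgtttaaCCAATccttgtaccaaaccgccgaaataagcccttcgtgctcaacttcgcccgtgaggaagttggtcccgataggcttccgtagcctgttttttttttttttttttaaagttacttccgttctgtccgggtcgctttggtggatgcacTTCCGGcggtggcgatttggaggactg
Psme3: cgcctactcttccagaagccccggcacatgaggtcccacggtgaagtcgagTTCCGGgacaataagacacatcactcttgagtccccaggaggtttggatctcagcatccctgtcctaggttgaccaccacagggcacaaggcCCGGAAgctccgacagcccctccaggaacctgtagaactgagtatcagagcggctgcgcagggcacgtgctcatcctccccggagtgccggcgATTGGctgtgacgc
TTCCGG occurred in 18 of the 42 members' windows, against 12.03% of all 32851 windows and 20.1% of the windows of tested genes. Among the subunits of the 26S particle with a window, it was found in 10 of the 17 that were lower and in 2 of the 8 that did not pass. It also stands 2 times in the window of Psme3, which did not pass. The part of this motif in the results was not tested. GGGCGG was found in 22 of the 42 windows, against 56.8% of those of tested genes, and CCAAT in 15, against 34.8%. TGACNNNGC was found in 5 of the 42, against 11.6% of the windows of tested genes, and these were Psmb5, Psmb6, Psmc6, Psmd12 and Psmd9. TATAAA was found in 4, against 6.48%. The windows shown for Psmc5, Psmb5 and Psmc1 run past the gene starts annotated by GENCODE, at positions 106256154, 54618022 and 100110154. The TTCCGG match of Psmc1 lies past that start, inside the annotated gene. No test was made, and a match of letters is not a site.

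All 6 genes of the ATPase ring were lower, with a median log2 fold change of -0.70. They stayed negative under each scaling, with 2 of 6 past the test on total counts and 4 of 6 on total counts without crystallins. Psmc5 stood at 188, 179 and 141 CPM in the cKO libraries, against 278, 351 and 367 CPM in the wild type libraries. Every cKO library held less than every wild type library, with a log2 fold change of -0.97, SE 0.15, adjusted p = 0.00209. Psmc1, whose protein tail docks into the alpha ring and helps open the gate, stood at 145, 144 and 125 CPM in the cKO libraries, against 214, 277 and 244 CPM in the wild type libraries. The groups are again fully apart, with a log2 fold change of -0.83, SE 0.12, adjusted p = 0.00163. Psmc4 and Psmc3, whose proteins carry the same kind of docking tail, had log2 fold changes of -0.74, SE 0.12, adjusted p = 0.00334, and -0.67, SE 0.12, adjusted p = 0.00476. Psmc4 stood at 158, 136 and 124 CPM in the cKO libraries, against 206, 238 and 253 CPM in the wild type libraries. Psmc3 stood at 169, 169.8 and 139.9 CPM in the cKO libraries, against 222, 279 and 262 CPM in the wild type libraries. Neither overlapped between groups. The other two ATPase genes, Psmc2 and Psmc6, had the smallest differences in the ring, with log2 fold changes of -0.44, SE 0.11, adjusted p = 0.0193, and -0.43, SE 0.11, adjusted p = 0.0191. Their call was lost in 4 of the 6 fits without 1 library, with adjusted p up to 0.0736 and 0.0722.

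**Figure D2:**
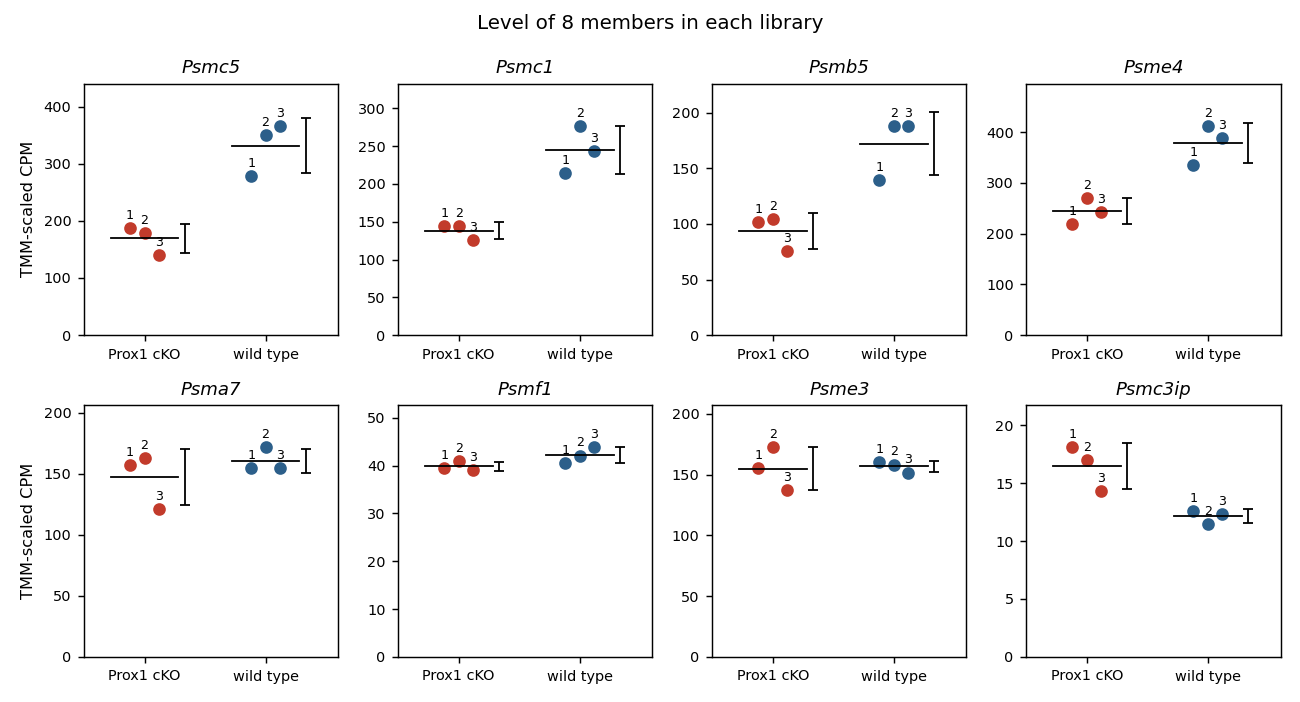
Level of 8 members in each library as TMM-scaled CPM (y axis, from 0), with Prox1 cKO (red) left of wild type (blue); numbers are the library, lines the mean and bars the SD of 3 libraries. Psmc5, Psmc1, Psmb5 and Psme4 lie lower in the cKO without overlap, Psma7, Psmf1 and Psme3 overlap, and Psmc3ip lies higher.

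All 3 base subunits without ATPase activity that match the name rule were lower as well, with a median log2 fold change of -0.67. They kept a negative sign under every scaling, though none passed on total counts. Psmd4, a receptor for ubiquitin chains, stood at 132, 128 and 103 CPM in the cKO libraries, against 166, 209.6 and 203 CPM in the wild type libraries (log2 fold change -0.67, SE 0.13, adjusted p = 0.00656). Psmd1, a large scaffold subunit, stood at 173, 189 and 172 CPM in the cKO libraries, against 249, 305 and 292 CPM in the wild type libraries (log2 fold change -0.67, SE 0.11, adjusted p = 0.00271). Psmd2, the scaffold that binds shuttle proteins carrying ubiquitin chains, stood at 246, 269 and 226 CPM in the cKO libraries, against 329, 392 and 338 CPM in the wild type libraries (log2 fold change -0.51, SE 0.11, adjusted p = 0.0105). The groups did not overlap for any of the 3.

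Of the 8 lid genes that match the name rule, 4 were lower, Psmd12, Psmd6, Psmd14 and Psmd11, and the median was -0.33. On total counts none of the 8 passed, and Psmd3, Psmd7, Psmd8, Psmd11 and Psmd14 had positive values. Psmd12 showed the largest difference, at 132, 118 and 111 CPM in the cKO libraries, against 164, 189.9 and 171 CPM in the wild type libraries (log2 fold change -0.54, SE 0.10, adjusted p = 0.00602). Psmd14, the enzyme that cuts the ubiquitin chain from the substrate, stood at 101, 87.4 and 76.8 CPM in the cKO libraries, against 108, 114 and 118 CPM in the wild type libraries (log2 fold change -0.36, SE 0.11, adjusted p = 0.0409). Psmd11, which clamps the lid to the core, had the smallest difference that passed (log2 fold change -0.28, SE 0.091, adjusted p = 0.0478). The 4 that did not pass, Psmd13, Psmd8, Psmd7 and Psmd3, had log2 fold changes of -0.36, -0.29, -0.23 and -0.17, and their cKO libraries too all lay below the wild type libraries.

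In the core, 5 of the 7 constitutive beta genes were lower, with a median of -0.57. All 3 genes of the catalytic sites were among them. Psmb5, which carries the chymotrypsin-like activity, stood at 102, 104 and 75.3 CPM in the cKO libraries, against 139, 188 and 189 CPM in the wild type libraries (log2 fold change -0.87, SE 0.16, adjusted p = 0.00512). Psmb6, with the caspase-like activity, stood at 147, 138 and 109.9 CPM in the cKO libraries, against 175, 221 and 217 CPM in the wild type libraries (log2 fold change -0.64, SE 0.14, adjusted p = 0.0101). Psmb7, with the trypsin-like activity, stood at 166, 162 and 142 CPM in the cKO libraries, against 199, 269 and 236 CPM in the wild type libraries (log2 fold change -0.58, SE 0.13, adjusted p = 0.0106). Each of these 3 was apart between groups in all libraries. The non-catalytic Psmb4 and Psmb1 were lower, with log2 fold changes of -0.57 and -0.41, and Psmb3 and Psmb2 did not pass, with -0.38 (adjusted p = 0.0574) and -0.28 (adjusted p = 0.0915). On total counts, 1 of the 7 passed, Psmb5, and Psmb2 had a positive value.

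Among the 8 alpha genes, 2 were lower, Psma5 (log2 fold change -0.50, SE 0.13, adjusted p = 0.0200) and Psma3 (log2 fold change -0.47, SE 0.13, adjusted p = 0.0266), and neither passed on total counts with or without crystallins. The median was -0.25, and 16.8% of all features tested were lower. Psma6, Psma2, Psma4, Psma1 and Psma7 had log2 fold changes from -0.31 to -0.12 with adjusted p from 0.0576 to 0.469, and on total counts these 5 had positive values. Psma7 stood at 157, 163 and 121 CPM in the cKO libraries, against 155, 172 and 154 CPM in the wild type libraries, so the groups overlapped. Psma8, an alpha gene known from the testis, was near the detection limit at 0.881, 1.00 and 0.806 CPM in the cKO libraries, against 0.579, 0.572 and 0.978 CPM in the wild type libraries, with a log2 fold change of 0.34 (adjusted p = 0.475).

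**Figure D3:**
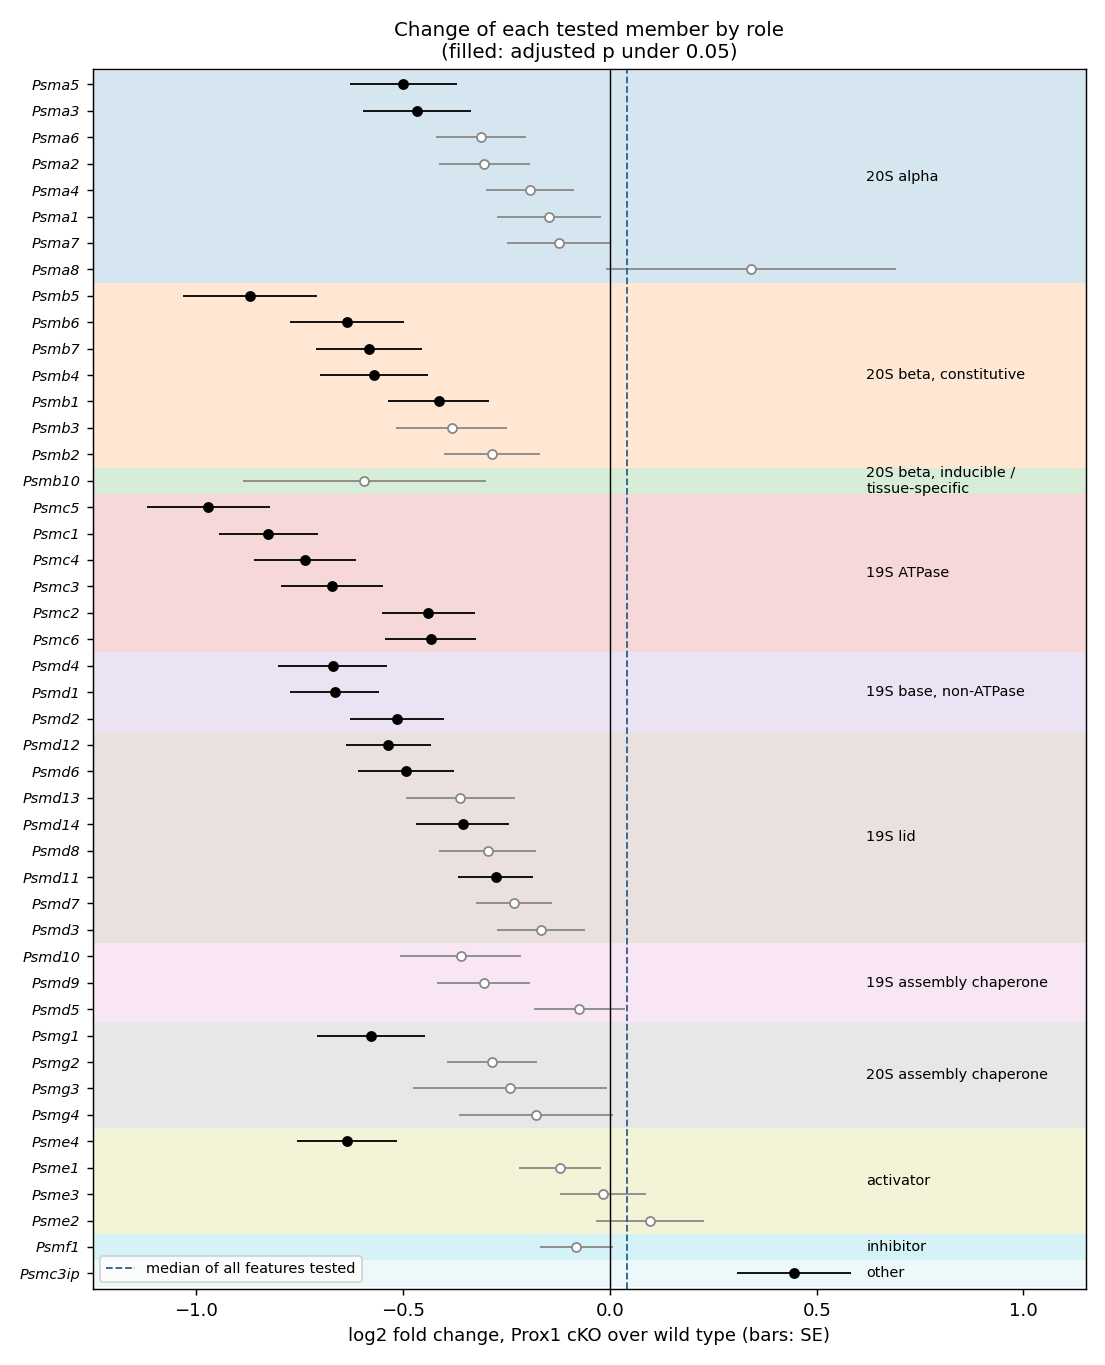
Log2 fold change of each of the 46 tested members (x axis, Prox1 cKO over wild type, bars are SE), grouped by role from top to bottom; filled points passed an adjusted p of 0.05, and the dashed line is the median of all features tested, 0.042. The ATPase and base genes lie between -0.97 and -0.43, and Psmc3ip is the only filled point on the positive side. On total counts alone 20 of the members shown left of 0 had positive values.

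Ratios between roles within a library do not depend on the scaling. The geometric mean of the ATPase genes over that of the 7 common alpha genes was 1.86, 1.75 and 1.90 in the cKO libraries, against 2.26, 2.40 and 2.51 in the wild type libraries. ATPase over lid was 1.29, 1.19 and 1.25 in the cKO, against 1.48, 1.61 and 1.63 in the wild type. The 3 catalytic beta genes over the alpha genes gave 1.53, 1.53 and 1.497 in the cKO, against 1.80, 2.06 and 2.16 in the wild type. None of these ratios overlapped between the groups. They were chosen with the values above known, and with 3 libraries against 3 an exact two-sided permutation test cannot go below 0.10, so no test is given.

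The alternative beta subunits were scarce. Psmb8 and Psmb9, which replace catalytic subunits in the interferon-induced immunoproteasome, and Psmb11, known from the thymus, had too few counts to be tested. Psmb8 had 8, 4 and 2 counts in the cKO libraries, against 13, 1 and 2 in the wild type libraries. Psmb9 had 8, 11 and 3 counts in the cKO, against 8, 4 and 4 in the wild type. Psmb11 had 3, 4 and 1 counts in the cKO, against 3, 3 and 6 in the wild type. No group stands out in these low counts. Psmb10, the remaining immunoproteasome subunit, stood at 1.67, 1.502 and 1.31 CPM in the cKO libraries, against 2.41, 2.86 and 1.61 CPM in the wild type libraries, with a log2 fold change of -0.59 that did not pass (adjusted p = 0.148).

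Of the 4 tested activators, which open the core without ATP, 1 was lower, beside 16.8% of all features tested. Psme4, the large nuclear cap PA200, stood at 218, 269.7 and 243 CPM in the cKO libraries, against 336, 413 and 387 CPM in the wild type libraries (log2 fold change -0.64, SE 0.12, adjusted p = 0.00569). It was lower in all libraries and passed in every fit with 1 library left out, but not on total counts. Psme3, the nuclear ring protein PA28 gamma, stood at 155, 172 and 137 CPM in the cKO libraries, against 160.4, 158 and 152 CPM in the wild type libraries (log2 fold change -0.016, SE 0.10, adjusted p = 0.914). Psme1, one of the pair of interferon-induced ring subunits, stood at 58.3, 51.5 and 48.3 CPM in the cKO libraries, against 54.7, 58.9 and 58.7 CPM in the wild type libraries (log2 fold change -0.12, SE 0.10, adjusted p = 0.373). Its partner Psme2 stood at 18.2, 18.02 and 14.8 CPM in the cKO libraries, against 16.4, 16.4 and 15.1 CPM in the wild type libraries (log2 fold change 0.097, SE 0.13, adjusted p = 0.591). The groups overlapped for these 3, and the sign of Psme3 turned under 3 of the other scalings and that of Psme1 under total counts. Psme2b had no count in any library. The 31 common 26S subunits among the members over Psme1 to Psme3, by geometric mean CPM, gave 2.24, 2.23 and 2.19 in the cKO. In the wild type the ratio was 2.76, 3.21 and 3.14. CPM is not per length of a gene, so this ratio only compares the groups.

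The inhibitor gene Psmf1, which encodes PI31, stood at 39.5, 40.97 and 39.1 CPM in the cKO libraries, against 40.6, 42.1 and 43.8 CPM in the wild type libraries (log2 fold change -0.082, SE 0.088, adjusted p = 0.498), and the groups overlapped. Of the chaperones that assemble the core, Psmg1 was lower (log2 fold change -0.58, SE 0.13, adjusted p = 0.0118), while Psmg2, Psmg3 and Psmg4 had log2 fold changes of -0.29, -0.24 and -0.18 and did not pass. None of the base chaperones Psmd10, Psmd9 and Psmd5 passed, with log2 fold changes of -0.36, -0.31 and -0.074 (lowest adjusted p = 0.0662). Over all features tested, 16.8% were lower and 15.9% higher. Of the 15 tested members other than the 31 common 26S subunits that match the name rule, 13.3% were lower, near that share. These were 2 genes, Psme4 and Psmg1, and 1 member was higher. That one, Psmc3ip, has a name that matches the rule but encodes a meiotic recombination cofactor and no proteasome subunit. It stood at 18.1, 17.02 and 14.3 CPM in the cKO libraries, against 12.6, 11.5 and 12.4 CPM in the wild type libraries (log2 fold change 0.44, SE 0.14, adjusted p = 0.0388), and it passed in 1 of the 6 fits with 1 library left out. Its exons share 21.2% of their bases with Mlx on the opposite strand. The kit keeps no strand, so reads of such overlaps cannot be assigned to one gene, and Mlx had a log2 fold change of -0.39 (adjusted p = 0.0635). The same limit holds for Psmb7, Psmd13, Psmd9 and Psmb8, which share 11.8%, 10.1%, 25.5% and 14.7% of exon bases with opposite-strand genes. Nek6, which overlaps Psmb7, had a log2 fold change of -0.16 (adjusted p = 0.170). Sirt3, which overlaps Psmd13, had 0.098 (adjusted p = 0.652). The part of these overlaps in the values was not tested.

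Levels of different subunits were compared by RPKM as deposited, which is per length of a gene and scaled by total counts. The highest was Psmc5, with 138 ± 25.8 RPKM in the cKO and 209 ± 12.1 RPKM in the wild type (SD, n = 3 each), followed by Psmb1 with 161 ± 23.6 RPKM in the cKO and 167 ± 8.73 RPKM in the wild type and Psmb7 with 146 ± 18.05 RPKM in the cKO and 170.2 ± 14.4 RPKM in the wild type. The lowest were Psma3 with 6.17 ± 0.805 RPKM in the cKO and 6.67 ± 0.509 RPKM in the wild type, Psmb3 with 12.9 ± 2.07 RPKM in the cKO and 13.2 ± 0.375 RPKM in the wild type and Psmd11 with 17.6 ± 1.61 RPKM in the cKO and 16.6 ± 0.416 RPKM in the wild type. The highest stood 27.0-fold above the lowest. The 3 lowest kept their places in all 6 libraries. Psmc5 ranked 1 in each wild type library but 4, 5 and 5 in the cKO libraries, where Psma2 and Psmb1 held rank 1. The SDs of Psmb1 and Psmb7 overlapped in both groups. Those of Psma2, with 149.7 ± 25.3 RPKM in the cKO and 144 ± 8.15 RPKM in the wild type, overlapped theirs in the cKO libraries and not in the wild type libraries. The lengths that the RPKM implies for Psma3, Psmb3 and Psmd11 are 3894, 2300 and 6383 bases, each equal to all annotated exons together. The same holds for Psmc5, at 1394 bases. For Psmb1 and Psmb7 the implied lengths are 1036 and 1214 bases, of 4595 and 3421 exon bases. The part of these unlike lengths in the order of the subunits was not tested. Of the 51-base windows of Psma5, Psmb3, Psmb5 and Psme2 transcripts, 54.8%, 55.0%, 56.2% and 58.9% also occur in another annotated gene or pseudogene, so their levels are uncertain.

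**Figure D4:**
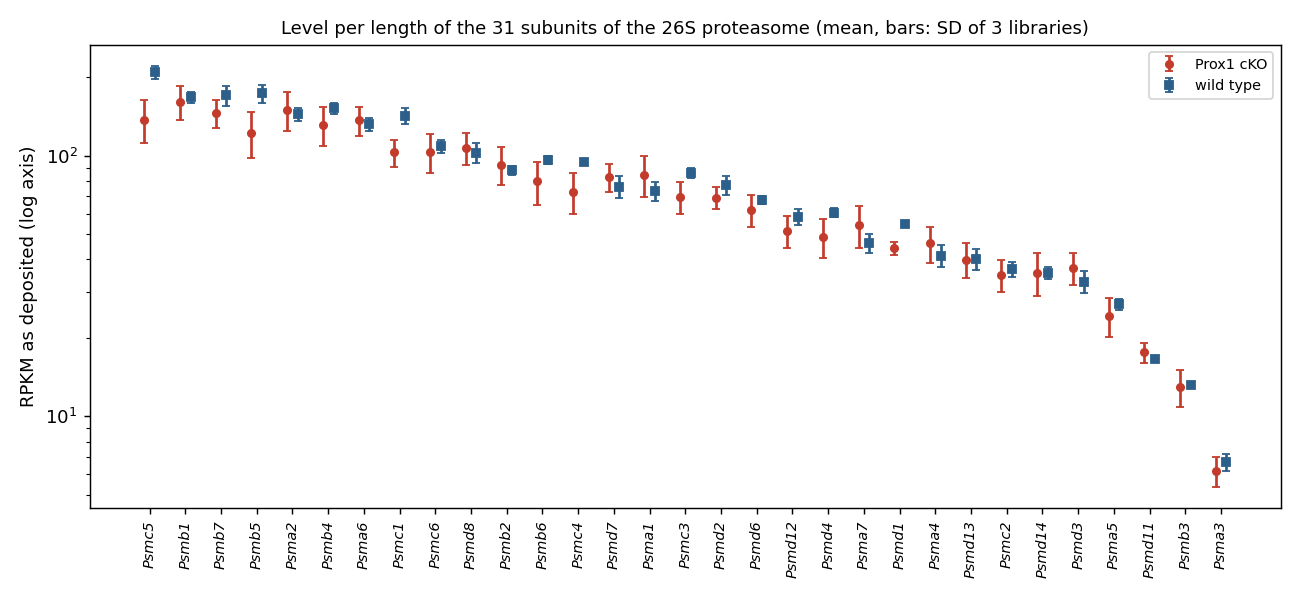
RPKM as deposited (y axis, log scale, mean and SD of 3 libraries) of the 31 subunits of the 26S proteasome that match the name rule. They are in order of the mean over all libraries, Prox1 cKO in red and wild type in blue. The order runs from Psmc5 at 174 to Psma3 at 6.42 RPKM over all libraries, and Psmc5 is the subunit with the widest gap between the groups at the high end.

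NFE2L1 is known to raise the transcription of proteasome genes when the proteasome is impaired. Its motif, TGACNNNGC, was found in 5 of the 42 members' windows above, against 11.6% of the windows of tested genes. Among the windows shown, picked mainly for the largest decreases, that of Psmb5 was the 1 that held it. Of 12 genes of its axis that were tested, 5 were lower and none was higher, with a median of -0.31. Over all features tested, 16.8% were lower and 15.9% higher. Mafg, a small MAF partner, stood at 144, 151 and 124 CPM in the cKO libraries, against 264, 329.8 and 344 CPM in the wild type libraries (log2 fold change -1.16, SE 0.13, adjusted p = 0.000508). Nfe2l2, its relative in the oxidative stress response, stood at 58.8, 51.98 and 54.9 CPM in the cKO libraries, against 102, 107 and 91.6 CPM in the wild type libraries (log2 fold change -0.86, SE 0.097, adjusted p = 0.00052). Both lay apart in all libraries. Nfe2l1 itself was lower, at 207, 225 and 216 CPM in the cKO libraries, against 258, 292 and 282 CPM in the wild type libraries (log2 fold change -0.36, SE 0.094, adjusted p = 0.0206). It passed in 4 of the 6 fits with 1 library left out, with adjusted p up to 0.0800, and the list had 3 genes past the test on total counts. Ngly1, the deglycosylase that processes its protein, and Vcp, the unfoldase that extracts it from the membrane, were lower, with log2 fold changes of -0.57 and -0.42. The protease gene Ddi2, which cleaves it, had a log2 fold change of -0.055 (adjusted p = 0.690), and Nfe2l3, at 1.09 to 3.12 CPM in the cKO and 0.917 to 1.55 CPM in the wild type, had 0.72 (adjusted p = 0.230).

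The counts in the next lists stand beside 16.8% lower and 15.9% higher over all features tested. Of 9 genes outside the name rule for proteins that belong to or associate with the 26S particle, 2 were lower. They were the ubiquitin receptor Adrm1 (log2 fold change -0.40, SE 0.12, adjusted p = 0.0378) and the ubiquitin ligase Ube3c (log2 fold change -0.35, SE 0.094, adjusted p = 0.0236). Ube3c had a log2 fold change of 0.0016 on total counts. Adrm1 passed in 1 and Ube3c in 2 of the 6 fits with 1 library left out, with adjusted p up to 0.125 and 0.0856. None of the 9 passed on total counts with or without crystallins, or without cKO library 3, wild type library 2 or wild type library 3. Uchl5 and Txnl1 did not pass, with log2 fold changes of -0.24 and -0.21. Shfm1 had a log2 fold change of -0.088 (adjusted p = 0.630), and its groups overlapped. Of 9 assembly factors, 7 of which are Psmg and Psmd members described above, 2 were lower, Psmg1 and Pomp, the maturation factor of the core, at 140.0, 123 and 114 CPM in the cKO libraries, against 165, 207 and 192 CPM in the wild type libraries (log2 fold change -0.58, SE 0.12, adjusted p = 0.00787). Of 6 ubiquitin and E1 genes, Ubb (log2 fold change -0.38, SE 0.12, adjusted p = 0.0440) and the main E1 enzyme Uba1 (log2 fold change -0.37, SE 0.095, adjusted p = 0.0193) were lower. Ubb passed in 2 and Uba1 in 3 of the 6 fits with 1 library left out, with adjusted p up to 0.138 and 0.0679. Of the list, 1 gene passed on total counts and 0 on total counts without crystallins, without wild type library 2 or without wild type library 3. Rps27a, which encodes ubiquitin fused to a ribosomal protein, did not pass, with a log2 fold change of -0.50 (adjusted p = 0.0520). Of 6 tested shuttle factors 3 were lower. Among them, Ubqln1 and Rad23b had log2 fold changes of -0.43 and -0.33, and passed in 4 and 1 of the 6 fits with 1 library left out (adjusted p up to 0.0540 and 0.154). Ubqln2, which did not pass, had 0.29 (adjusted p = 0.0782).

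The lid has the same build as the COP9 signalosome, which removes the modifier NEDD8 from cullins, and as the translation factor eIF3. Of 9 tested COP9 genes 8 were lower (median -0.51), of 13 tested eIF3 genes 9 were lower (median -0.40), and of 8 genes of the CCT chaperonin, a ring that folds actin and tubulin, 7 were lower (median -0.63). These medians are of log2 fold changes. None of these 3 lists had a gene that was higher, and over all features tested 16.8% were lower. On total counts 3, 2 and 2 of their genes passed in either direction, against 6362 of all 14271 features tested. Cops5, the catalytic subunit of COP9, stood at 122, 118 and 103 CPM in the cKO libraries, against 188, 251 and 239.7 CPM in the wild type libraries (log2 fold change -0.99, SE 0.13, adjusted p = 0.00111), and Cops6, which pairs with it, had a log2 fold change of -0.96, SE 0.15, adjusted p = 0.00231. Gps1 and Cops2 followed with log2 fold changes of -0.71 and -0.69. Eif3j1 had the largest decrease among the tested eIF3 genes (log2 fold change -1.03, SE 0.14, adjusted p = 0.00114), followed by Eif3c, Eif3g and Eif3i with -0.61, -0.57 and -0.54. Tcp1 had the largest decrease in CCT, at 429.6, 416 and 401 CPM in the cKO libraries, against 689.5, 910.1 and 832 CPM in the wild type libraries (log2 fold change -0.96, SE 0.13, adjusted p = 0.00105). Cct3, Cct8 and Cct7 had log2 fold changes of -0.78, -0.70 and -0.64. The ratio of the 26S subunits over COP9, by geometric mean CPM, was 1.28, 1.35 and 1.23 in the cKO. In the wild type it was 1.24, 1.21 and 1.18, and the groups overlap. Over CCT it was 0.317, 0.32 and 0.303 in the cKO, against 0.278, 0.28 and 0.283 in the wild type, and each cKO library lay above each wild type library.

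**Figure D5:**
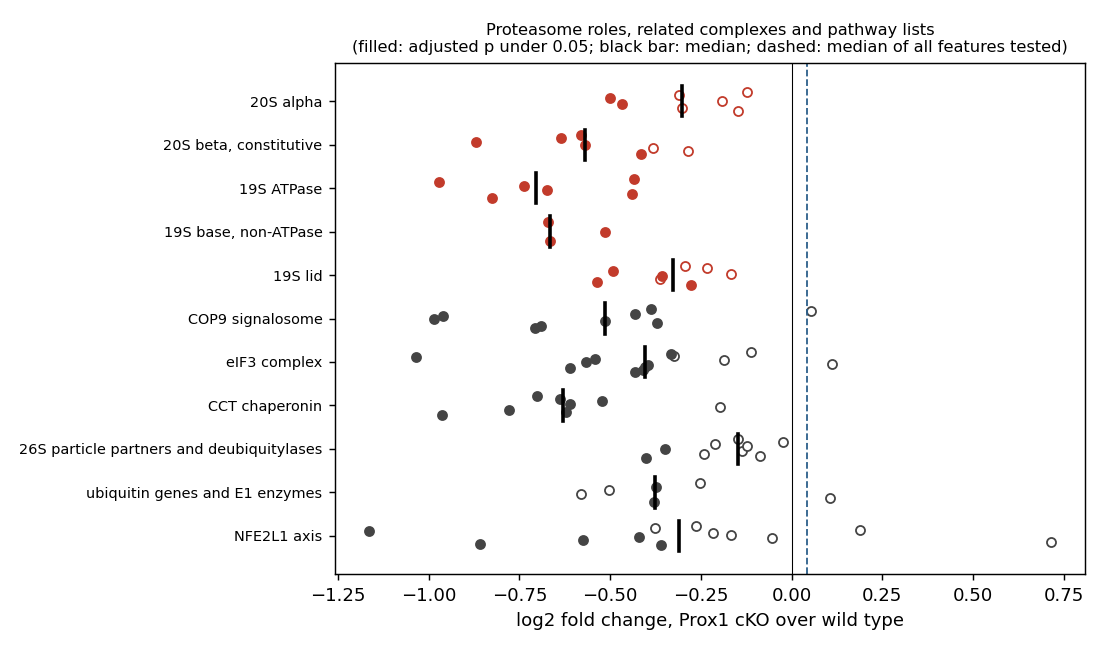
Log2 fold change (x axis, Prox1 cKO over wild type) of each tested gene in the roles of the 26S particle (red, without Psma8) and in related complexes and pathway lists (grey); filled points passed an adjusted p of 0.05, black bars are medians and the dashed line is the median of all features tested, 0.042. The CCT median of -0.63 lies near those of the ATPase (-0.70) and base (-0.67) genes, and the 26S partner median of -0.15 lies closest to 0. Values are with TMM scaling.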

How the data were processed

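Poly(A) RNA of 6 lens pools was sequenced as single-end 51-base reads from a TruSeq RNA kit, per the labels' protocols; this kit keeps no strand. The deposited tables list 41128 features with raw counts, CPM and RPKM, per the file headers. The submitters' processing notes name GRCm38 and edgeR; the sources used here do not give the aligner or counter. Of the features, 26 with mismatched counts and CPM were left out. Raw counts were filtered by filterByExpr (minimum count 10), scaled by TMM and fitted with edgeR 4.0.16 (quasi-likelihood test, R 4.3.3), with Benjamini-Hochberg adjustment over all 14271 features tested and a threshold of 0.05. Here CPM means TMM-scaled CPM, and fold changes are cKO over wild type on the log2 scale with SE. The deposited RPKM served to compare genes. The fit was tested on simulated data with few genes changed, as many up as down, and a smaller spread than in the data. The simulation held no shift of the crystallins as a group, so it cannot test the scaling. Alternatives were DESeq2 1.42.0, limma-voom 3.58.1, other scalings and filters, a replicate block and each library left out. Named are the members changed at least 1.5-fold, catalytic, activator and inhibitor genes, the 3 highest and lowest subunits, untested members and up to 4 genes of each list, with others, chosen after their values were seen, that a count needs. Coordinates and exon overlaps came from mouse GENCODE release M21. Some genes of the lists are not reported here by name. Members and lists were chosen with earlier results of these data known.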

Additional observations from a re-analysis of the deposited data

How the results depend on the processing

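The members' direction depended on scaling. On total counts alone 4 members passed instead of 23, 3 of them lower (Psmc5, Psmc1 and Psmb5), and their median was -0.0007, while 6362 features passed in all instead of 4659. Values that were negative became positive there, as log2 fold changes: Psma1 0.21, Psma2 0.055, Psma4 0.16, Psma6 0.047, Psma7 0.23, Psmb2 0.075, Psmd3 0.18, Psmd5 0.27, Psmd7 0.12, Psmd8 0.060, Psmd9 0.052, Psmd10 0.0059, Psmd11 0.081, Psmd14 0.0029, Psme1 0.24, Psme3 0.33, Psmf1 0.27, Psmg2 0.072, Psmg3 0.12, Psmg4 0.18, Ube3c 0.0016, Uchl5 0.11, Txnl1 0.15 and Rad23b 0.021. On total counts without crystallins 16 members passed, and Psmd5 (0.013), Psme3 (0.071) and Psmf1 (0.0078) were positive, as was Psme3 with upper quartile scaling (0.033). The other scalings, filters and tests left 21 to 27 members past the threshold. With each library left out in turn, 12 to 29 members passed, 12 to 29 were lower, and 2267 to 5318 features passed in all, with the lowest counts without wild type library 2, and Psme3 ranged from -0.10 to 0.065. The cause was not tested.

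Libraries of the same number did not vary together throughout: their deviations correlated at -0.028, 0.25 and 0.11. With the replicate number as a block 21 members passed, all lower, and 4176 features in all. Psmb8, Psmb9 and Psmb11 are limited by depth: 3 counts, the most that a count of 0 allows, correspond to 0.106 to 0.33 CPM, for counting error only.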

Other observations

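Genes of interferon response and antigen presentation, which share their known inducers with Psmb8, Psmb9, Psme1 and Psme2, had 2 of 16 tested members higher and 2 lower in the cKO, with a median log2 fold change of 0.18. Over all features tested, 15.9% were higher and 16.8% lower, so these counts lie near the general share. Ifit3, an interferon-induced antiviral gene, was higher (log2 fold change 1.70, SE 0.44, adjusted p = 0.0209, edgeR) at 1.67, 1.33 and 2.52 CPM in the cKO libraries, against 0.724, 0.229 and 0.690 CPM in the wild type libraries. Irf1, an interferon-induced transcription factor, was higher as well (log2 fold change 0.79, SE 0.24, adjusted p = 0.0365). With 1 library left out, Ifit3 passed in 3 of 6 fits (adjusted p up to 0.0696) and Irf1 in 2 of 6 (adjusted p up to 0.135). Tap1 and Tap2, the peptide transporter genes, had log2 fold changes of 0.65 and 1.02 and did not pass.

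Nlrc5, the activator of class I antigen presentation genes, had 3, 6 and 1 counts in the cKO libraries, against 5, 258 and 562 counts in the wild type libraries. Wild type libraries 2 and 3 were high, while wild type library 1 lay within the range of the cKO. The fitted log2 fold change of -6.34 (adjusted p = 0.0167) rests on those 2 libraries, and it ranged from -7.33 to -5.27 with 1 library left out, with adjusted p up to 0.0610.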
